A study of Saccharomyces cerevisiae with 60 samples.

Results

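SPS100 (YHR139C) and YGP1 (YNL160W) are a homologous pair of budding yeast genes for secreted glycoproteins. Both were followed here through heat in cells with and without the transcription factors Hsf1, Msn2 and Msn4. They were looked up by gene identifier, which gives 2 of the 7126 features counted, and both were among the 6070 features with enough reads to test. The pair was selected on its homology and on its measured levels and fold changes, with earlier results of these libraries in view. Its own levels and fold changes are therefore given with their errors as a description and carry no test.

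The yeast cell wall is a mesh of glucan and chitin covered with mannoproteins, and its protein coat is exchanged when growth or temperature changes. SPS100 takes its name from sporulation, and its protein is needed for the spore wall to mature. YGP1 encodes a heavily glycosylated secreted protein that is known to appear when glucose runs short and cells approach stationary phase. Hsf1 is the essential activator of chaperone genes. Msn2 and Msn4 are a related pair of zinc finger activators that serve the general stress response through the short stress response element.

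The study sequenced poly(A) RNA from W303 yeast grown in rich medium with adenine, in 60 libraries that make 20 groups of 3. Every strain, wild type included, carried Hsf1 in the anchor-away form, in which rapamycin draws a tagged protein out of the nucleus. The 4 strain states were -hsf1/msn2Δ/msn4Δ (rapamycin in DMSO, called double loss here), msn2Δ/msn4Δ (DMSO, MSN-deleted), -hsf1 (rapamycin in DMSO, Hsf1-depleted) and wildtype (DMSO). Each state was sampled at 25 °C, 45 min after the addition, and after a further 10 or 30 min at 37 °C or 42 °C. Rapamycin and the loss of Hsf1 came together, so they cannot be told apart in these samples. By the names of their count tables the libraries fall into 6 sets of 10, and both deleted states lie in 3 sets that hold no other state. The deletion and the set therefore cannot be told apart either.

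Library totals ran between 3848210 and 10142858 counts, with a median of 5938357. In the deleted states MSN2 had a count in 3 of 30 libraries and did not pass 0.33 CPM, against 99.3 to 433 CPM in the intact states, and MSN4 did not pass 1.49 CPM, against 88.0 to 708 CPM. CPM stands here for counts scaled to a common library size with TMM, which evens out differences in RNA composition. The labels do not say that replicates are separate cultures, so errors and p-values speak of the spread among these libraries, which may be technical. In bulk RNA, fewer cells with a transcript and less of it per cell cannot be told apart. Over all features, 4 libraries stood apart from their groups, namely double loss at 25 °C replicate 2 and at 37 °C 30 min replicate 2, MSN-deleted at 42 °C 10 min replicate 1, and Hsf1-depleted at 25 °C replicate 1. Log2 fold changes of the pair that use these libraries are also given from a fit without all 4.

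SPS100 lies on chromosome VIII at 378219 to 379199 of build R64 on the minus strand, and YGP1 on chromosome XIV at 336545 to 337609 on the plus strand. Each is counted as a single interval of 981 and 1065 bases, with no other annotated feature over it. Translated from R64, SPS100 has 326 residues and YGP1 has 354. In a global alignment 158 of 305 aligned residues were identical, or 51.8%, and identity was 49.1% over residues 1 to 108 of SPS100, 47.5% over residues 109 to 217 and 59.2% over residues 218 to 326. SPS100 holds 12 sites for N-linked glycosylation (asparagine, any residue but proline, then serine or threonine) and YGP1 holds 15. Serine and threonine make up 29.1% of SPS100 and 22.9% of YGP1. The coding sequences were 65.4% identical and shared no exact run longer than 17 bases. None of the 932 and 1016 50-base windows in the 2 genes occurs anywhere else in the genome, so a 50 bp read that matches exactly belongs to 1 place.

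The stretches upstream of both genes are shown because they hold the motifs of the factors that the study removed. Motifs were searched on both strands in the 500 bases before each start codon. The letters were CCCCT or AGGGG for the stress response element, TTCNNGAA or GAANNTTC for a heat shock element of 2 units, and TTCNNGAANNTTC or GAANNTTCNNGAA for one of 3 units. Capitals mark the matches, and each window reads 5′ to 3′ along the gene's own strand in build R64.
SPS100, chrVIII:379300-379499, minus strand, 300 to 101 bases before the start codon: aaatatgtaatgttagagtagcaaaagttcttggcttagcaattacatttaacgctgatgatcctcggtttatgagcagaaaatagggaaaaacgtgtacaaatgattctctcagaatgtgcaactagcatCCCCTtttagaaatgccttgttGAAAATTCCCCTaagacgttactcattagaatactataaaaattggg
YGP1, chrXIV:336045-336244, plus strand, 500 to 301 bases before the start codon: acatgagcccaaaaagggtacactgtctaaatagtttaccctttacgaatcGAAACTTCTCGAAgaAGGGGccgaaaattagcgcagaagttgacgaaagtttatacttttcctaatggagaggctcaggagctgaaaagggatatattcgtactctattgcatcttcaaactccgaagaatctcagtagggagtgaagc

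SPS100 had 2 stress response elements, at 169 to 165 and 140 to 136 bases before the start codon, the second of which overlaps a 2-unit heat shock element at 147 to 140. YGP1 had 1 stress response element at 434 to 430 bases, 2 bases away from a 3-unit heat shock element at 449 to 437 that contains both of its 2-unit matches. Of 5986 promoters of the same length, 34.1% held a stress response element and 8.14% held at least 2. A 2-unit heat shock element was found in 35.2% of them and a 3-unit one in 1.49%. The core CACAAAA (or TTTTGTG) of the site of Ndt80, the activator of mid-sporulation genes, was found in neither window and in 12.5% of promoters. These matches describe the letters and do not show binding.

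At 25 °C the 2 genes stood far apart in level, and the 4 strain states had little SPS100. SPS100 had 3.81, 1.81 and 2.18 CPM in double-loss cells, 3.15, 3.04 and 2.14 CPM in MSN-deleted cells, 5.08, 1.90 and 2.60 CPM in Hsf1-depleted cells and 1.91, 2.67 and 2.19 CPM in wild type. All 4 groups overlapped, and each value rests on 11 to 22 reads. YGP1 had 500, 107 and 894 CPM in double-loss cells, 400, 258 and 825 CPM in MSN-deleted cells, 2358, 1744 and 2559 CPM in Hsf1-depleted cells and 878, 1781 and 1687 CPM in wild type. All 3 MSN-deleted libraries lay below all 3 of wild type (log2 fold change -1.55 ± 0.60 SE, where 8.78% of features were lower without overlap), while the double-loss libraries overlapped wild type at 1 value. Without replicate 3 of the MSN-deleted group the difference was -2.14. The double-loss difference of -1.53 became -2.26 without replicate 3 of that group and -1.08 without the libraries standing apart. Per kilobase of gene, YGP1 was 569-fold above SPS100 in wild type at 25 °C (423 to 711-fold over 3 libraries).

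**Figure D1:**
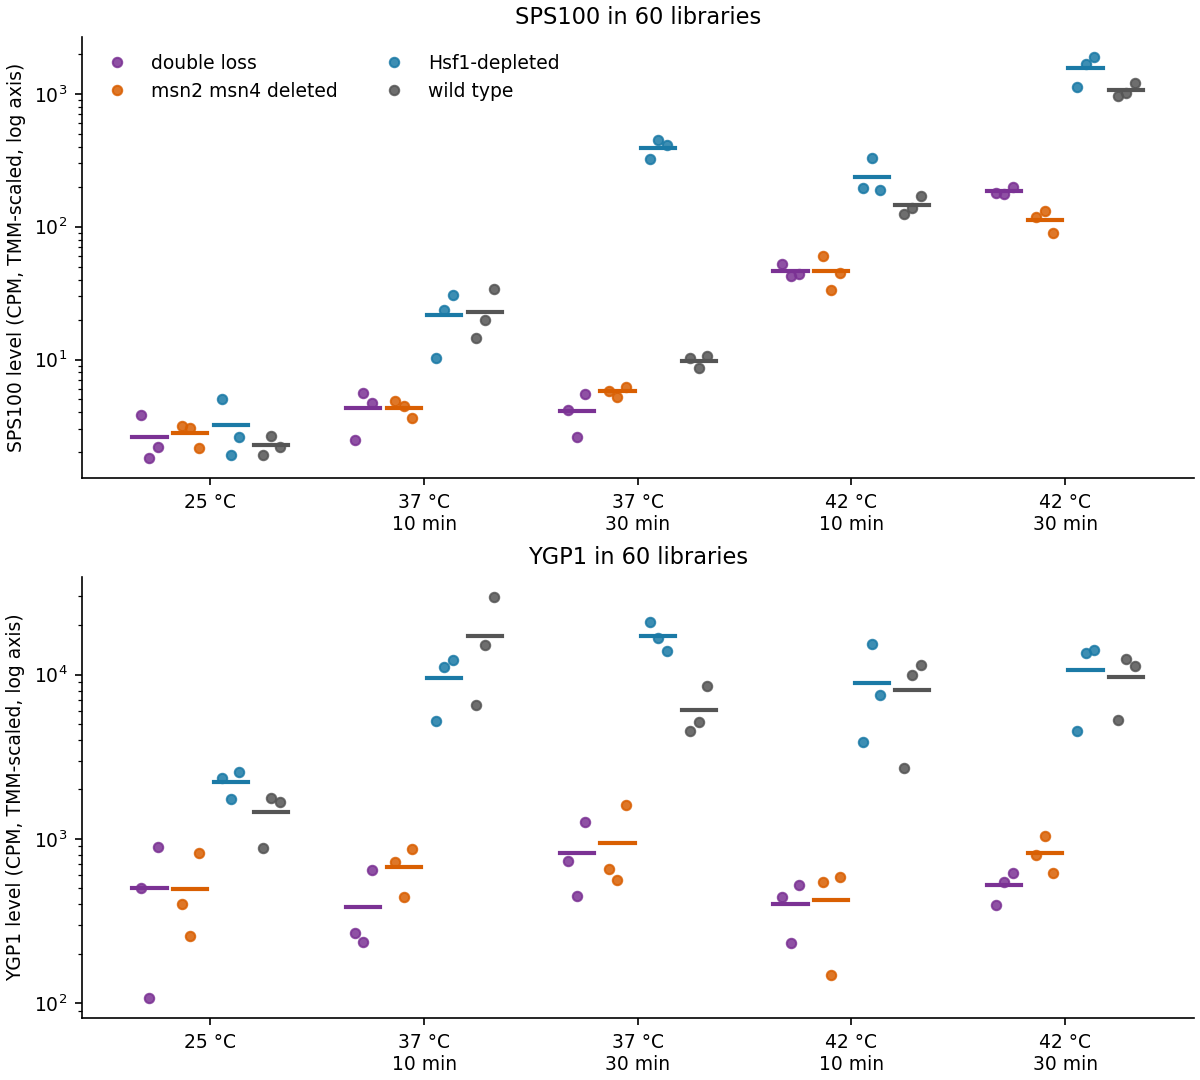
Level of SPS100 (top) and YGP1 (bottom) in each of 60 libraries, in CPM after TMM scaling on a log axis, by condition and strain state; points are libraries and bars are means of 3. SPS100 stood above 900 CPM in Hsf1-depleted and wild-type cells at 42 °C 30 min, and among the 37 °C groups it passed 100 CPM in Hsf1-depleted cells at 30 min, where the libraries had 322 to 447 CPM.

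In wild type, SPS100 was higher in all 4 heat conditions, with the highest level at 42 °C 30 min. It had 14.4, 19.8 and 34.1 CPM after 10 min at 37 °C and 10.2, 8.58 and 10.6 CPM after 30 min at 37 °C. At 42 °C it had 125, 139 and 170 CPM after 10 min and 967, 1020.5 and 1209 CPM after 30 min. At 37 °C the level was lower at 30 min than at 10 min, and at 42 °C it was higher at 30 min. Against 25 °C the log2 fold changes were 3.34 ± 0.37 and 2.11 ± 0.37 at 37 °C and 6.0 ± 0.36 and 8.88 ± 0.36 at 42 °C (10 and 30 min each, ± SE). The last is 471-fold and was the 19th highest of 6070 features in that comparison, and 38.1% of features lay higher with no overlap between libraries. Within the library sets that hold both groups, the same difference ran between 8.79 and 9.06.

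YGP1 was also higher in heated wild type at each time and temperature, with its largest difference at 37 °C 10 min. It had 6562, 15177 and 29744 CPM after 10 min at 37 °C and 4535, 5139 and 8563 CPM after 30 min. At 42 °C it had 2710, 9960 and 11489 CPM after 10 min and 5258, 12465 and 11337 CPM after 30 min. No heated library overlapped the 25 °C libraries, and each heated group overlapped the others. At 37 °C 10 min, 1638 of the 6070 features were higher without overlap, and at 37 °C 30 min, 42 °C 10 min and 42 °C 30 min it was 27.9%, 31.8% and 38.1% of them. The log2 fold changes over 25 °C were 3.57 ± 0.60, 2.07 ± 0.60, 2.47 ± 0.60 and 2.74 ± 0.60 in the same order of conditions. One library weighed on the first: without replicate 3 at 37 °C 10 min it was 2.91, and with library totals alone 2.96. The highest count of YGP1 was 145642 reads, in wild type at 37 °C 10 min.

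The ratio between the genes therefore changed with temperature. Per kilobase, YGP1 was 619-fold above SPS100 in wild type at 37 °C 10 min and 552-fold at 37 °C 30 min, close to the 569-fold at 25 °C. It was 43.5-fold above at 42 °C 10 min and 7.87-fold at 42 °C 30 min (5.01 to 11.3-fold over 3 libraries). The smallest gap of the 20 groups was in double-loss cells at 42 °C 30 min, at 2.55-fold. In no group did the mean of SPS100 reach that of YGP1.

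**Figure D2:**
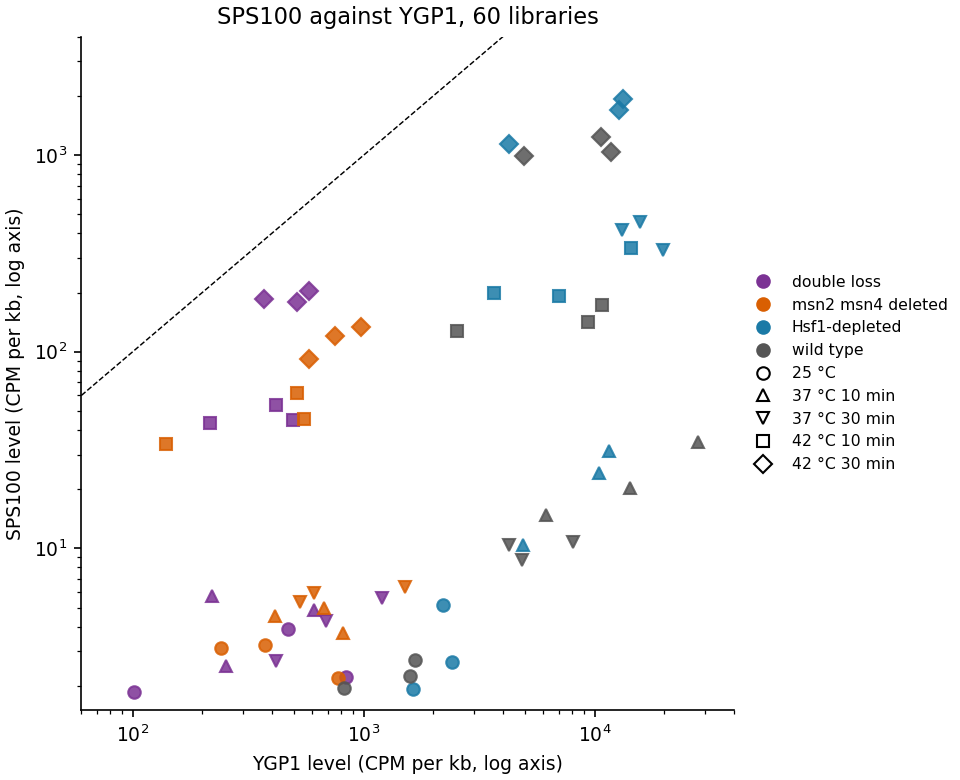
SPS100 (vertical) against YGP1 (horizontal) in 60 libraries, both in CPM per kilobase on log axes; colour gives the strain state, marker shape the condition, and the dashed line equal levels. The double-loss libraries at 42 °C 30 min lie nearest the line, at 2.00 to 2.88-fold, all double-loss and MSN-deleted libraries stay below 1600 CPM per kilobase of YGP1, and no library lies on or above the line.

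Both genes were also higher in heated than in unheated Hsf1-depleted cells. SPS100 had 10.2, 23.8 and 30.7 CPM after 10 min at 37 °C, 322, 447 and 410 CPM after 30 min, 195, 331 and 188 CPM after 10 min at 42 °C and 1123, 1671 and 1903 CPM after 30 min. These are log2 fold changes over 25 °C of 2.87 ± 0.36, 7.07 ± 0.36, 6.34 ± 0.36 and 9.06 ± 0.36, and of 3.30, 7.53, 6.66 and 9.50 without the 4 libraries standing apart. No heated library overlapped those at 25 °C, where 23.2%, 30.7%, 28.6% and 35.6% of features were higher without overlap. YGP1 had 5196, 11144 and 12273 CPM after 10 min at 37 °C, 21006, 16655 and 13939 CPM after 30 min, 3883, 15315 and 7481 CPM after 10 min at 42 °C and 4543, 13503 and 14133 CPM after 30 min. Its libraries did not overlap 25 °C either, with log2 fold changes of 2.10, 2.95, 2.00 and 2.27 (SE 0.60 each), or 2.20, 3.08, 1.99 and 2.38 without the 4 libraries standing apart. The value at 42 °C 10 min was 1.36 without replicate 2.

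Hsf1-depleted cells differed from wild type in SPS100 mainly at 1 point, 37 °C 30 min. There SPS100 had 322, 447 and 410 CPM in Hsf1-depleted cells, against 10.2, 8.58 and 10.6 CPM in wild type. All 3 depleted libraries lay above all 3 of wild type, as did those of 26.2% of features in this comparison. The log2 fold change was 5.33 ± 0.31 (40.1-fold), the 7th highest of 6070 features, and 4.92 to 5.58 within library sets. Without the 4 libraries standing apart it was 5.44. The heat response at 37 °C 30 min, which counts the 25 °C levels too, was larger in Hsf1-depleted cells by 4.95 ± 0.52, or likewise 5.44 without those libraries.

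On the TMM scale the same comparison was small in the other conditions. The log2 fold change of SPS100 in Hsf1-depleted cells over wild type was 0.37 ± 0.41 at 25 °C (0.00 without the libraries standing apart) and -0.10 ± 0.31 at 37 °C 10 min, with overlapping libraries. At 42 °C 10 min it had 195, 331 and 188 CPM in Hsf1-depleted cells, against 125, 139 and 170 CPM in wild type, which did not overlap (0.72 ± 0.29, where 9.56% of features were higher without overlap). At 42 °C 30 min it had 1123, 1671 and 1903 CPM in Hsf1-depleted cells, against 967, 1020.5 and 1209 CPM in wild type, and 1 depleted library lay inside the wild-type range (0.56 ± 0.29). That overlap rests on the TMM scale. With library totals alone the values were 1432, 1627 and 1879 CPM, against 702, 769 and 886 CPM in wild type, and the log2 fold change was 1.07. The change with time at 37 °C had opposite signs in these states: between 10 and 30 min SPS100 changed by 4.2 ± 0.30 in Hsf1-depleted cells (18.2% of features higher without overlap) and by -1.23 ± 0.32 in wild type (16.1% lower), in both cases without overlap of the libraries. In Hsf1-depleted cells the libraries at 37 °C 30 min and 42 °C 10 min overlapped at 1 value.

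YGP1 in the same cells had a smaller difference from wild type. At 37 °C 30 min it had 21006, 16655 and 13939 CPM in Hsf1-depleted cells, against 4535, 5139 and 8563 CPM in wild type. The libraries did not overlap (26.2% of features were higher without overlap), and the log2 fold change was 1.5 ± 0.60 (1.29 to 1.88 within sets). The heat response of YGP1 there, which counts the 25 °C levels too, differed less clearly. It was larger in Hsf1-depleted cells by 0.88 with an SE of 0.85, or 1.05 without the libraries standing apart. In the other 4 conditions the libraries of Hsf1-depleted cells and wild type overlapped, with log2 fold changes between -0.85 ± 0.60 at 37 °C 10 min and 0.62 ± 0.60 at 25 °C (0.57 without the libraries standing apart). The value of -0.85 became -0.19 without replicate 3 of wild type, and that of 0.14 ± 0.60 at 42 °C 10 min became -0.50 without replicate 2 of the depleted group. At 37 °C 30 min the ratio of YGP1 to SPS100 per kilobase was 40.1-fold in Hsf1-depleted cells, against 552-fold in wild type.

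**Figure D3:**
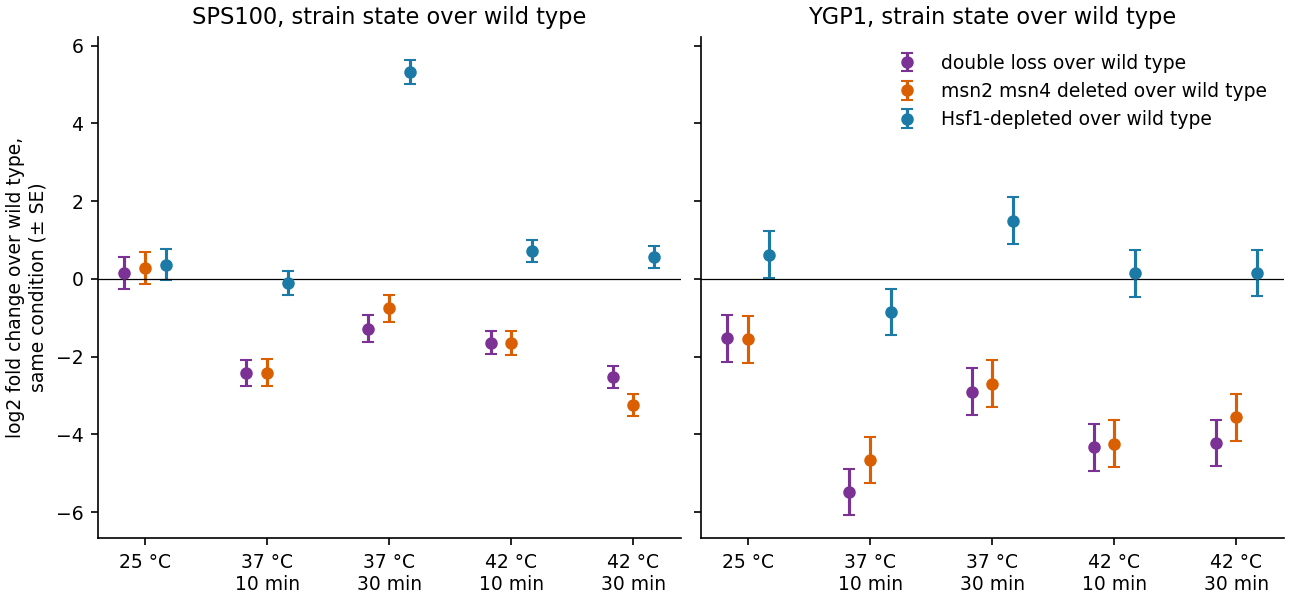
Log2 fold change over wild type in the same condition, with standard errors, for SPS100 (left) and YGP1 (right); colours give the strain state, 3 libraries a group. On the TMM scale Hsf1-depleted cells stood at 5.33 for SPS100 at 37 °C 30 min and within 1 of wild type at the other points, while both deleted states lay below wild type for YGP1 in all 5 conditions.

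Cells without MSN2 and MSN4 had less YGP1 than wild type in every condition, and their heated libraries overlapped those at 25 °C. In MSN-deleted cells YGP1 had 719, 442 and 869 CPM after 10 min at 37 °C, 652, 564 and 1607 CPM after 30 min, 546, 148 and 585 CPM after 10 min at 42 °C and 801, 1041 and 619 CPM after 30 min. Every one of these heated groups overlapped the MSN-deleted libraries at 25 °C, with log2 fold changes of 0.45, 0.93, -0.21 and 0.73 (SE 0.60 each). Within library sets YGP1 was higher than at 25 °C in every set at 37 °C 30 min (0.70 to 1.13) and at 42 °C 30 min (0.34 to 1.64). The sets had both signs after 10 min at 37 °C and at 42 °C. Leaving out replicate 3 at 25 °C gave 1.04, 1.52, 0.37 and 1.32, and 37 °C 30 min gave 0.30 without its own replicate 3. Without the libraries standing apart, 42 °C 10 min gave -0.43. Against heated wild type, MSN-deleted cells were lower without overlap in all 4 conditions, by log2 fold changes of -4.66, -2.69, -4.24 and -3.56 (SE 0.60 each). Features that did not overlap in either direction made up 41.4%, 34.3%, 31.9% and 56.5% of all tested in these comparisons. The value of -4.66 became -4.01 without replicate 3 of wild type and -4.02 with library totals alone, -2.69 became -3.32 without replicate 3 of the MSN-deleted group, and -4.24 became -4.49 without the libraries standing apart.

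SPS100 was still higher in heated than in unheated MSN-deleted cells. In MSN-deleted cells it had 4.88, 4.45 and 3.62 CPM after 10 min at 37 °C and 5.81, 5.24 and 6.22 CPM after 30 min. At 42 °C it had 60.4, 33.3 and 44.6 CPM after 10 min and 118, 131 and 89.8 CPM after 30 min. These levels were above 25 °C without overlap in all 4 conditions, by log2 fold changes of 0.64 ± 0.38, 1.06 ± 0.37, 4.05 ± 0.35 and 5.35 ± 0.35, the last 40.7-fold, where 22.2%, 24.3%, 28.1% and 36.1% of features were higher without overlap. The levels at 37 °C rest on 25 to 51 reads per library and those at 25 °C on 15 to 18. At 37 °C 10 min the 95% interval of the log2 fold change ran from -0.11 to 1.39. Over wild type the MSN-deleted cells stood at -2.41 ± 0.34, -0.76 ± 0.34, -1.65 ± 0.30 and -3.24 ± 0.29 in heat and at 0.29 ± 0.41 at 25 °C. The response at 42 °C 30 min was thus smaller than that of wild type by 3.53 ± 0.50 on the log2 scale, yet SPS100 was still above its 25 °C level in each library. Without the libraries standing apart, 4.05 at 42 °C 10 min was 3.81 and -1.65 over wild type was -1.91.

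SPS100 was low in double-loss cells at 37 °C 30 min, where it was high in Hsf1-depleted cells. At 37 °C 30 min SPS100 had 4.19, 2.62 and 5.47 CPM in double-loss cells, against 322, 447 and 410 CPM in Hsf1-depleted cells. That is a log2 fold change of -6.60 ± 0.32, or -6.38 without the libraries standing apart and -6.01 with library totals alone, and 24.6% of features were lower without overlap there. Against MSN-deleted cells the double-loss value was -0.52 ± 0.35 (-0.20 without the libraries standing apart), with overlapping libraries. The double-loss difference from wild type was 5.84 ± 0.46 below the sum of both single-loss differences at 37 °C 30 min (-5.64 for the signed value without the libraries standing apart). At 25 °C, 37 °C 10 min, 42 °C 10 min and 42 °C 30 min this gap was -0.51 ± 0.58, 0.09 ± 0.47, -0.71 ± 0.42 and 0.16 ± 0.41. Without the libraries standing apart it was 0.08 at 25 °C and -0.50 at 42 °C 10 min.

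At 42 °C, SPS100 was high in double-loss cells as well. It had 52.3, 42.6 and 44.3 CPM after 10 min and 181, 176 and 200 CPM after 30 min, which is 4.21 ± 0.36 and 6.20 ± 0.36 above 25 °C on the log2 scale (26.2% and 32.2% of features higher without overlap), or 3.90 and 5.95 without the libraries standing apart. At 42 °C 30 min all 3 double-loss libraries lay above the 118, 131 and 89.8 CPM of MSN-deleted cells (0.72 ± 0.29, within sets 0.43 to 1.01, where 16.5% of features were higher without overlap). With library totals alone this difference was 1.40. At 37 °C the double-loss libraries overlapped those at 25 °C after 10 and 30 min (0.77 ± 0.39 and 0.68 ± 0.38, or 0.58 and 0.79 without the libraries standing apart), with 2.49, 5.64 and 4.74 CPM at 10 min. Within library sets SPS100 was higher than at 25 °C in every set, by 0.31 to 1.37 after 10 min and 0.14 to 1.33 after 30 min. With library totals alone the values were 1.06 and 1.07. These 37 °C levels rest on 17 to 41 reads per library. YGP1 had 269, 235 and 649 CPM after 10 min at 37 °C in double-loss cells, 731, 446 and 1275 CPM after 30 min and 443, 231 and 527 CPM after 10 min at 42 °C. It had 394, 550 and 620 CPM in double-loss cells at 42 °C 30 min, against 4543, 13503 and 14133 CPM in Hsf1-depleted cells. Its heat responses in double-loss cells were -0.38, 0.71, -0.32 and 0.06 (SE 0.60 each) with overlapping libraries. Except at 37 °C 30 min their sign turned with the libraries or the scaling used: without replicate 3 at 25 °C they were 0.34, 1.43, 0.40 and 0.78, without the libraries standing apart -0.82, 0.62, -0.88 and -0.45, and with library totals alone 0.07, 1.16, 0.09 and 0.66. At 37 °C 30 min YGP1 was higher than at 25 °C in every library set (0.51 to 2.06), while the sets had both signs in the other heat conditions.

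YGP1 in double-loss cells overlapped YGP1 in MSN-deleted cells in all 5 conditions. The log2 fold changes of double-loss over MSN-deleted cells were 0.02 at 25 °C, -0.82 and -0.20 at 37 °C and -0.09 and -0.65 at 42 °C (10 and 30 min each, SE 0.60 each). Within library sets they ran between -1.69 and -0.15 at 37 °C 10 min and between -0.92 and -0.37 at 42 °C 30 min, lower in every set, and they had both signs in the other 3 conditions. The direction at 42 °C 30 min rests on the TMM scale, since with library totals alone the value there was 0.03 and 1 set turned (916 CPM in double-loss cells, against 664 CPM in MSN-deleted cells). With library totals the value was also -0.10 at 25 °C and 0.28 at 42 °C 10 min. Without replicate 3 of the double-loss group the value was -0.70 at 25 °C and -1.53 at 37 °C 10 min, and without replicate 3 of the MSN-deleted group it was 0.43 at 37 °C 30 min. Without the libraries standing apart it was 0.49 at 25 °C, 0.16 at 37 °C 30 min and 0.05 at 42 °C 10 min.

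**Figure D4:**
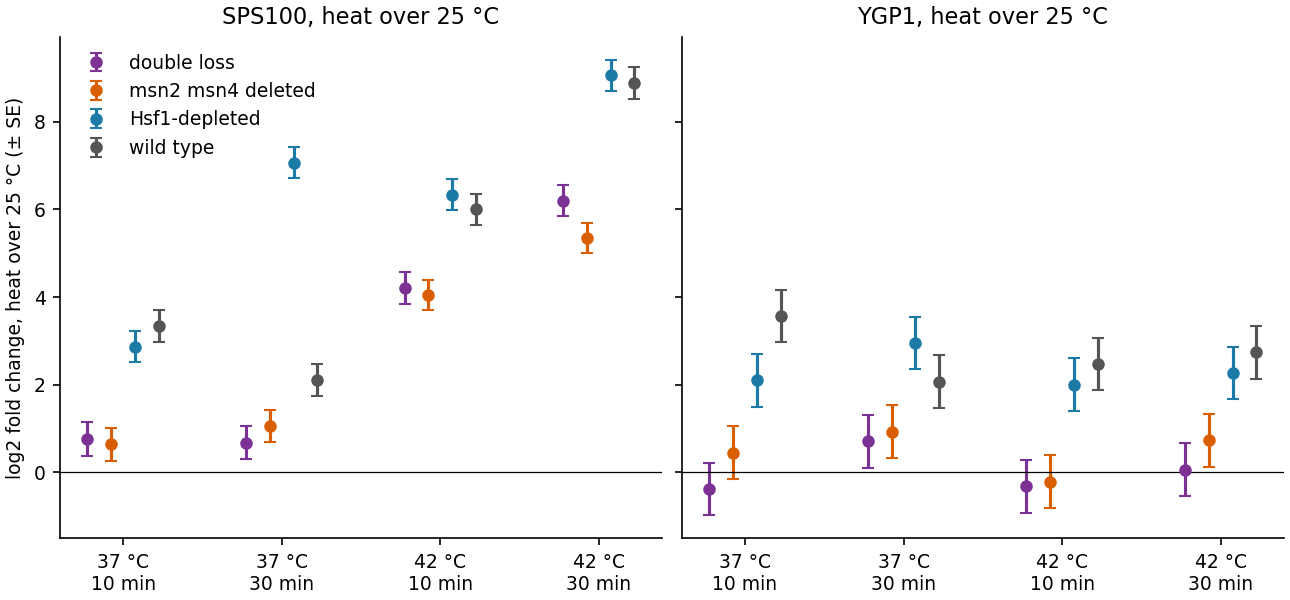
Log2 fold change over 25 °C in the same strain state, with standard errors, for SPS100 (left) and YGP1 (right) in 4 heat conditions; colours give the strain state, 3 libraries a group. SPS100 stood at 4.05 or more at 42 °C in all 4 states, and YGP1 stood at 2.00 or more in Hsf1-depleted and wild-type cells and at 0.93 or less in both deleted states.

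Ordered by mean level, the highest SPS100 groups were Hsf1-depleted and wild type at 42 °C 30 min, whose libraries overlapped on the TMM scale but not with library totals alone. Hsf1-depleted cells at 37 °C 30 min came next, apart from wild type at 42 °C 30 min and overlapping Hsf1-depleted cells at 42 °C 10 min. The lowest SPS100 groups were those at 25 °C, which overlapped each other and the double-loss groups at 37 °C. For YGP1 the 8 heated groups with intact MSN2 and MSN4 took the 8 highest places, and each overlapped the next. The lowest of them, wild type at 37 °C 30 min, did not overlap Hsf1-depleted cells at 25 °C, and the 10 deleted groups took the lowest places. Over the 16 heat comparisons the libraries did not overlap in 14 for SPS100 and 8 for YGP1, where 29.4% to 77.0% of features did not overlap. Over the 25 comparisons of strain states it was 15 for each gene (3.81% to 65.7% of features). Over the 16 comparisons between times or between temperatures it was 15 for SPS100 and 2 for YGP1 (34.4% to 67.2% of features).

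The spread between replicates also set the genes apart. The SD within groups on the log2 scale was 0.41 for SPS100 and 0.81 for YGP1, against a median of 0.39 over 6070 features, and 97.0% of features varied less than YGP1. Of the 20 features within 0.5 of YGP1 in average log2 level, YGP1 itself included, 90.0% varied less than YGP1. Their median SD was 0.46. Among the 698 features within the same distance of SPS100, itself included, the median was 0.33 and 71.2% varied less than SPS100. The standard errors of group comparisons were near 0.60 for YGP1 and 0.29 to 0.41 for SPS100.

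The authors' deposited table gives log2 fold changes for the 16 heat responses of both genes. All 32 had the same sign as the values here, and the largest difference was 0.1.

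The genes next to SPS100 moved in the same direction at 42 °C in wild type. YHR138C lies 519 bases from it on the same strand and had 134 CPM at 42 °C 30 min, against 4.94 CPM at 25 °C (log2 fold change 4.71 ± 0.41, edgeR adjusted p = 4.5e-13). YHR140W, 1372 bases away on the other strand, had 141 CPM, against 1.47 CPM (6.50 ± 0.41, edgeR adjusted p = 2.94e-18). YHR139C-A, between SPS100 and YHR140W, never had more than 15 reads. Next to YGP1, the kinase gene CBK1 did not pass the test (-0.03 ± 0.15, edgeR adjusted p = 0.868), while ASI2 on the other side rose (1.78 ± 0.22, edgeR adjusted p = 1.47e-09). Of all 6070 features, 30.2% were higher in this comparison at an edgeR adjusted p under 0.05 and a log2 fold change of at least 1. Whether reads were counted by strand is not given in the sources used here, and transcripts running on into a neighbour were not tested.

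The genes with the most similar pattern were found from the correlation of log2 levels over the 20 group means, which share libraries and scaling. For SPS100 the 8 most similar were YPT53, CPP3, BOP3, UTR5, TOS8, BAG7, UIP3 and ROF1, with r from 0.973 down to 0.949. YPT53, a Rab-type GTPase of the endocytic path, had 49.6 CPM at 42 °C 30 min in wild type, against 0.478 CPM at 25 °C, and it had 11.2 CPM in Hsf1-depleted cells at 37 °C 30 min, against 1.60 CPM in wild type. Its value at 25 °C is a level of a few reads, and UTR5 had 0.0 CPM in wild type at 25 °C. TOS8, a homeobox-type regulator, had 634 CPM in wild type at 42 °C 30 min, against 5.91 CPM at 25 °C, and 168 CPM in Hsf1-depleted cells at 37 °C 30 min, against 41.2 CPM in wild type. For YGP1 the 8 most similar were GPH1, NTH1, BMH1, CST6, DCS1, DDR2, SOL4 and NNR2, with r from 0.969 down to 0.957. GPH1 (glycogen phosphorylase) and NTH1 (neutral trehalase) mobilise storage carbohydrate, and GPH1 had 1320 CPM in Hsf1-depleted cells at 37 °C 30 min, against 248 CPM in wild type. The order depended on the use of group means. Over the 60 single libraries UTR5 and ROF1 ranked 27 and 36 for SPS100, and BMH1 and CST6 ranked 61 and 32 for YGP1. The other genes of these lists stayed at rank 9 or better. Between SPS100 and YGP1 themselves r was 0.54, which placed YGP1 at 1538 among the features most similar to SPS100.

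The pair was set beside other wall genes, sporulation genes and stress genes in 7 lists from textbook knowledge. Some lists share members. CTT1, HSP12, HSP26, DDR2, SOL4, ALD3, GPH1 and TSL1 are in both the starvation and the general stress list. SED1 and SPI1 are in both the starvation and the wall protein list. The counts of these lists are therefore not independent. A gene is called when edgeR's quasi-likelihood test gives an adjusted p under 0.05, over all tested features, and the log2 fold change is 1 or more in size. In wild type at 42 °C 30 min over 25 °C this called 30.2% of features higher and 29.5% lower. Of 31 wall proteins, 16 were higher and 10 lower (median log2 fold change 1.34, against -0.04 over all features). SPI1, a GPI-anchored wall protein of stressed and weak-acid treated cells, rose to 9110 ± 462 CPM at 42 °C, against 44.9 ± 14.6 CPM at 25 °C (SD, n = 3 each, edgeR adjusted p = 6.95e-17). PIR3, whose family is linked to glucan through alkali-labile bonds, had 967 ± 543 CPM at 42 °C, against 51 ± 25.1 CPM at 25 °C (edgeR adjusted p = 2.19e-06), and SRL1 fell to 40.7 ± 15.6 CPM, against 692 ± 278 CPM (edgeR adjusted p = 3.53e-05). Of 31 enzymes that build or cut the wall, 6 were higher and 18 lower (median -1.95). DSE2 and EXG1, glucanases or glucanase relatives, fell by 4.88 ± 0.53 and 4.59 ± 0.24, and the wall protease YPS1 rose by 4.77 ± 0.36 on the log2 scale.

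Of 29 spore wall and late sporulation genes, 19 were higher and 1 lower in the same comparison (median 2.91). In wild type at 25 °C 10 of the 29 averaged under 1 CPM, so their fold changes rest on few reads. OSW2 and CDA1, needed for the outer layers of the spore wall, reached 82.1 ± 7.90 and 55.3 ± 4.73 CPM at 42 °C, against 2.19 ± 0.671 and 1.43 ± 0.417 CPM at 25 °C (edgeR adjusted p = 3.34e-19 and 6.75e-15). OSW1 had 91.2 ± 17.6 CPM at 42 °C and 0.0994 ± 0.172 CPM at 25 °C, a level of at most a few reads. The whole list summed to between 649 and 759 CPM per library at 42 °C 30 min, less than SPS100 alone, and to between 142 and 160 CPM at 25 °C. Of 12 markers of early meiosis 7 were higher and 0 lower (median 1.87), led by the master regulator IME1 at 246 ± 98.0 CPM, against 6.93 ± 0.628 CPM (edgeR adjusted p = 1.98e-17). NDT80, the regulator of the middle genes, averaged between 0.533 and 3.92 CPM over the 20 groups. Of 21 starvation and stationary phase genes 20 were higher and 0 lower (median 6.31), and of 20 general stress genes all 20 were higher (median 6.05). Of 18 chaperone genes under Hsf1 control all 18 were higher (median 4.18).

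In Hsf1-depleted cells over wild type at 37 °C 30 min, where SPS100 stood 40.1-fold higher, 11.4% of features were called higher and 17.3% lower. Of 21 starvation genes 15 were higher and 0 lower (median 2.62), and of 20 general stress genes 17 were higher and 0 lower (median 2.20). GRE1, a desiccation and osmotic stress gene, had 320 ± 205 CPM in Hsf1-depleted cells, against 6.67 ± 0.792 CPM in wild type (log2 fold change 5.57 ± 0.40, edgeR adjusted p = 6.05e-14), and the catalase gene CTT1 rose by 5.01 ± 0.41. Of 29 spore wall and late sporulation genes 2 were higher and 3 lower (median 0.34, against 0.00 over all features). They are named here after their values were seen: OSW1 (log2 fold change 2.12) and SPS1 (1.03) were higher, and GAS2 (-1.91), MUM3 (-1.77) and SPR6 (-1.08) were lower. The number higher was 0 without replicate 1 of wild type, 6 without replicate 2 of wild type and 0 without replicate 2 of Hsf1-depleted cells. Early meiosis markers had 3 higher and 2 lower of 12 (median 0.40). Wall proteins had 6 higher and 12 lower of 31 (median -0.15), which became 6 and 8 with DESeq2's size factors, and wall enzymes 2 higher and 18 lower of 31 (median -1.33). Leaving out 1 library at a time gave 4 to 5 higher wall proteins. At an adjusted p under 0.01, 7 wall proteins were lower, against 15.2% of all features. TOS6, a wall protein, fell to 3.02 ± 0.522 CPM, against 244 ± 79.1 CPM (edgeR adjusted p = 8.24e-09), and the glucanase relative SCW10 to 41.6 ± 11.1 CPM, against 919 ± 234 CPM (edgeR adjusted p = 2.14e-12). Of 18 chaperone genes 12 were lower and 0 higher (median -1.39).

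In MSN-deleted cells over wild type at 42 °C 30 min, where both genes were lower, 18.2% of features were called higher and 13.7% lower, and the median over all features was 0.24. General stress genes were lower for 19 of 20 (median -5.50), and starvation genes lower for 16 and higher for 2 of 21 (median -2.90). Wall proteins had 1 higher and 8 lower of 31 (median -0.28). PIR3 had 59.7 ± 20.3 CPM in MSN-deleted cells, against 967 ± 543 CPM in wild type (-4.02 ± 0.66, edgeR adjusted p = 2e-05), and the structural wall protein SED1 was lower by a log2 fold change of -2.90 ± 0.60. Of 29 spore wall and late sporulation genes 9 were higher, 0 lower and 20 did not pass the test (median 0.81). At an adjusted p under 0.01, 2 of the 29 were higher, against 13.1% of all features. Within MSN-deleted cells 26 of 29 were higher and 1 lower at 42 °C 30 min over 25 °C, where 26.2% of features were called higher and 23.2% lower. SPS100 was thus lower in MSN-deleted cells in a comparison in which none of the 29 passed the test as lower. Wall enzymes had 7 higher and 2 lower of 31 (median 0.35), early meiosis markers 2 higher and 3 lower of 12 (median -0.29), and chaperones 4 higher and 0 lower of 18 (median 0.62). With library totals alone these counts of higher genes were 12 for wall enzymes, 13 for spore wall genes, 8 for chaperones and 3 for wall proteins, where 25.8% of all features were called higher and the median over all features was 0.53.

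**Figure D5:**
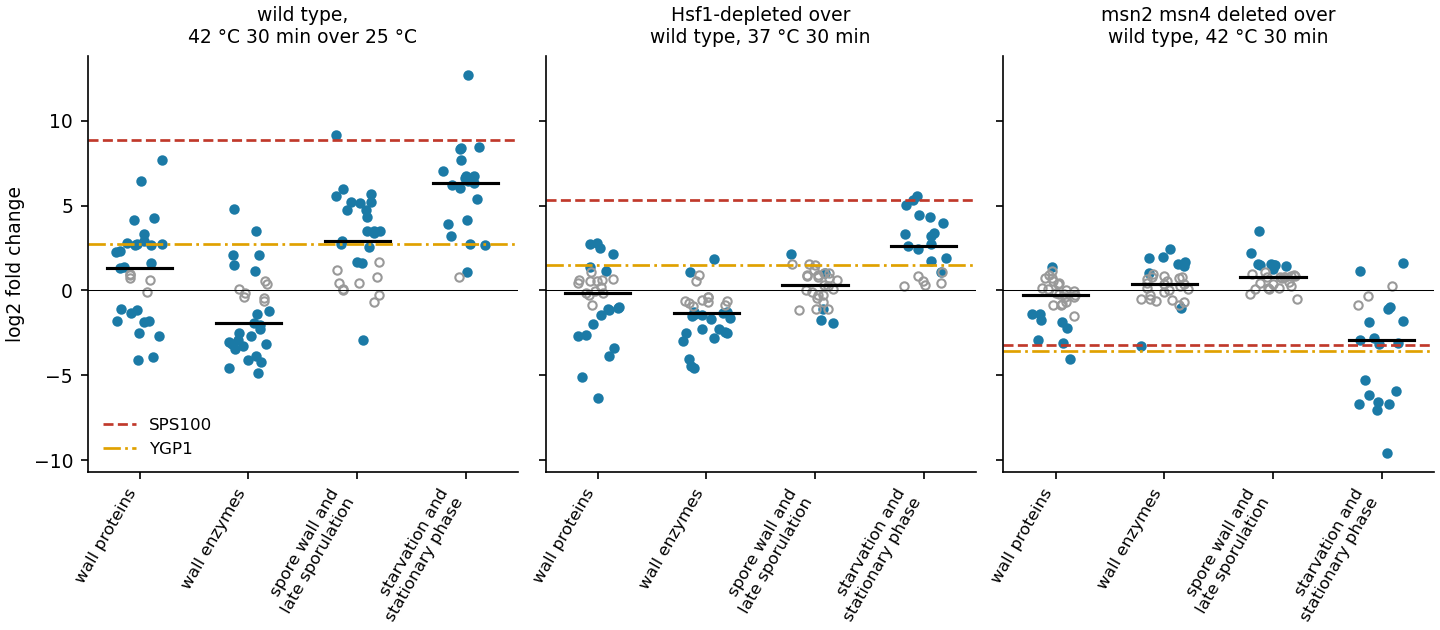
Log2 fold change of each gene of 4 lists in 3 comparisons (panels); filled blue points passed the test with a log2 fold change of 1 or more in size, open grey points did not, black bars are list medians, and the dashed and dash-dotted lines give SPS100 and YGP1. SPS100 lies above all but 1 of the late sporulation genes in heated wild type and above all of them in Hsf1-depleted cells at 37 °C 30 min, and below all of them in MSN-deleted cells at 42 °C 30 min.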

How the data were processed

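Poly(A) RNA was sequenced as 50 bp single reads after a Lexogen SENSE mRNA-Seq preparation, per the labels' protocols. The deposited count tables hold the authors' raw read counts per feature. The submitters' processing notes name featureCounts 2.0.0, bcl2fastq 1.8.4, DESeq2 1.28.1, DESeq and build R64, and the file headers name contextmap and trimming. How strand was treated is not given in the sources used here. A table deposited by the authors holds log2 fold changes of heat responses with adjusted p-values; it served for comparison only.

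Of the features, 6070 passed filterByExpr and 1056 did not, and all 60 libraries were fitted with edgeR 4.0.16 in R 4.3.3 (1 mean per group, TMM scaling, quasi-likelihood F test, two-sided, Benjamini-Hochberg over all tested features in each comparison). The common biological coefficient of variation was 0.276. CPM carries SD and log2 fold changes carry SE. The alternatives were DESeq2's size factors, library totals, no filter, DESeq2 1.42.0, the compared libraries alone, a replicate block, the library set as a term, an adjusted p under 0.01, and each library left out, with the same 6070 features wherever libraries were left out. A fit without the 4 libraries standing apart was chosen after seeing the data. Their root mean square deviation passed a limit near 0.543 on the log2 scale. This limit is the median of 0.296 plus 3 median absolute deviations, scaled to match an SD. Replicate numbers paired the samples in 1 of 41 comparisons and were not used as a block. No pair of replicates was a duplicate (chi-square per degree of freedom at least 8.92). Named genes follow a rule: up to 4 called members per list and comparison with an average log2 CPM of at least 3, by size, the 8 most similar features, and the neighbours; of these the text names a part. The members and lists were chosen with earlier results of these data known. Sequences were read from the R64 reference (6048 features matched by locus tag, and 5710 of 5721 single-interval features had the same ends) with Biopython 1.88. The fits were also run on simulated counts that held no differences between library sets, and the outcome is not given here.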

Additional observations from a re-analysis of the deposited data

How the results depend on the processing

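Scaling moved the values most. Library totals alone moved the median of all features by between -0.55 and 0.95 (log2) over the heat and strain comparisons, and DESeq2's size factors by between -0.11 and 0.14, so changes are relative to the TMM scale. With library totals alone 35 of 148 values of the pair moved by more than the replicate spread, none with an absolute main value of at least 1 changing sign. For SPS100 the heat responses of wild type became 2.77 at 37 °C 10 min, 5.51 at 42 °C 10 min and 8.31 at 42 °C 30 min, and that of double-loss cells at 42 °C 30 min 6.70. Hsf1-depleted cells over wild type at 42 °C 30 min became 1.07, and MSN-deleted cells over wild type -1.84 at 37 °C 10 min, -0.51 at 37 °C 30 min and -2.97 at 42 °C 30 min. Of the 42 list counts of the 3 comparisons described, 7 moved by over 1.5 times with library totals. They were higher wall enzymes and higher late sporulation genes in Hsf1-depleted cells at 37 °C 30 min (1 each), lower late sporulation genes in heated wild type (2), and in MSN-deleted cells lower wall enzymes (1) and the higher wall enzymes, chaperones and wall proteins given above. An adjusted p under 0.01 moved 7 counts, among them higher late sporulation genes to 1 in Hsf1-depleted and 2 in MSN-deleted cells, and the compared libraries alone moved 4, among them higher late sporulation genes to 0 in Hsf1-depleted cells. In wild type at 37 °C 10 min over 25 °C, 4 of 31 wall enzymes were higher and 5 lower, and 4 of 29 late sporulation genes were higher and 7 lower, against 1274 higher and 1347 lower of the 6070 features. Library totals gave 1 and 0 higher in these lists, against 803 higher and 1959 lower of all features, and the compared libraries alone gave 2 higher late sporulation genes. Over all features library totals turned the calls in wild type at 42 °C 30 min to 36.4% higher, against 50.6%, and at 37 °C 10 min to 29.1%, against 48.6%. They turned those of MSN-deleted cells over wild type at 42 °C 30 min to 71.9% higher, against 57.1%, and of Hsf1-depleted cells over wild type at 37 °C 30 min to 29.5%, against 39.8%. The cause was not tested.

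No filter, DESeq2, the replicate block and the library set as a term left each value of the pair that they could give within the replicate spread (116 of 116 values for the first 3, 86 of 86 for the set, which comparisons across MSN backgrounds do not allow). Of the 42 list counts, no filter, DESeq2 and DESeq2's size factors each moved 1, lower early meiosis markers in Hsf1-depleted cells, to 1, the block moved 0, and the library set moved 0 of 28. The block was not the design: with 30 of 60 libraries closest to their own replicate number and correlations of same-numbered libraries between -0.692 and 0.885, the numbers do not pair the samples. Without the 4 libraries standing apart, 112 of 116 values stayed within the replicate spread, and 1 of 42 list counts moved.

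Leaving out 1 library at a time gave 900 values of the pair, of which 44 moved by over 1.5 times, all of them for YGP1. None changed the sign of a value of at least 1. SPS100 ranged from 8.78 to 8.99 in wild type at 42 °C 30 min, from 0.48 to 0.76 in MSN-deleted cells at 37 °C 10 min and from 5.94 to 6.54 in double-loss cells at 42 °C 30 min. YGP1 ranged from 0.14 to 1.04 and from 0.42 to 1.32 in MSN-deleted cells at 37 °C 10 min and 42 °C 30 min. Higher wall enzymes and higher late sporulation genes each ranged from 2 to 4 in wild type at 37 °C 10 min, lower wall enzymes from 1 to 3 in MSN-deleted cells at 42 °C 30 min, and higher late sporulation genes from 0 to 6 in Hsf1-depleted cells at 37 °C 30 min.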

Other observations

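The deviations of single libraries from their group means gave a second view of the pair, as a description over 60 libraries that share scaling and depth. The features whose deviations followed those of YGP1 most closely were YRO2 (r = 0.846), PIR3 (0.837), XBP1 (0.834) and CYB2 (0.802). YRO2 and SPI1 encode proteins of the cell surface, PIR3 a wall protein, XBP1 a repressor made under stress and CYB2 a lactate dehydrogenase of respiring cells. For SPS100 they were FAT3 (0.779), NCE102 (0.752) and PHM7 (0.744). NCE102, a membrane protein of eisosomes, and SPI1 were among the 10 closest to each gene. Between SPS100 and YGP1 the deviations had r = 0.551.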
